A study of Mus musculus with 12 samples.

Results

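Ppbp, Pf4, Gp9 and Tubb1 are 4 genes of megakaryocytes and of the platelets that these cells release, and their RNA was followed through 12 libraries of embryonic mouse lung. They were picked by gene symbol from a count table of 31078 genes, with their measured values already known. Their own differences are therefore described below with their errors and no p-value, and no member is named as called. The study sequenced total RNA of lungs from C57BL/6 embryos at embryonic day 12.5, bred from parents that carry a knockout allele of Intu, a gene needed to build primary cilia. Wild-type and Intu-knockout lungs were each split into left and right, which gives 4 groups of 3 numbered libraries, and no embryo was treated. Neither the missing stretch of Intu nor any pooling of embryos is stated, and nothing ties a library to its own embryo, so the p-values below measure the spread between libraries, which may be technical.

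Megakaryocytes are large blood-forming cells that fill their cytoplasm with granules, receptors and membrane and then break it up into platelets, which have no nucleus but carry RNA of the megakaryocyte. In the mouse embryo the first megakaryocytes arise in the yolk sac and then in the fetal liver, and young platelets circulate with the red cells. A whole lung therefore holds RNA of platelets in its vessels together with RNA of any megakaryocyte in the tissue. Ppbp (pro-platelet basic protein, the precursor of the chemokine CXCL7) and Pf4 (platelet factor 4, the chemokine CXCL4) encode proteins stored in the alpha granules. Gp9 encodes a subunit of the GPIb-IX-V complex, the receptor with which platelets hold on to von Willebrand factor. Tubb1 encodes the beta-1 tubulin that forms the ring of microtubules around a resting platelet. Pf4 RNA is also known from some tissue macrophages.

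The part of the table used here held 10290103 to 10753386 counts per library on chromosomes 1 to 7, 10 and X and part of 8, and a level below is in counts-per-million (CPM) of that total. Intu itself did not separate the labels: the 6 wild-type libraries held 28.2 to 34.0 CPM and the 6 knockout libraries 26.2 to 31.4, with a log2 difference of -0.16 between genotypes (SE 0.06, adjusted p = 0.162 in edgeR's quasi-likelihood test). The genotypes are therefore those of the labels. Gli1, a target of Hedgehog signalling that depends on cilia, lay between 151 and 185 CPM in knockout-labelled and between 345 and 394 in wild-type libraries. Lung genes were present in every group, with Shh and Foxa2 of the airway epithelium at means of 106 and 104 CPM and Wnt2 of the mesenchyme at 245. Knockout left library 1 stood apart in 8 liver genes, with a summed level of 90.7 CPM against 5.18 to 10.1 in the other 11 libraries.

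The 4 genes lie at 3 places in the genome (GRCm38). Ppbp (chromosome 5, 90768518 to 90770063) and Pf4 (chromosome 5, 90772435 to 90773383) are next to each other on the plus strand, with 2371 bases between the end of Ppbp and the start of Pf4. Gp9 lies on chromosome 6 (87778072 to 87779768) and Tubb1 on chromosome 2 (174450695 to 174457882), both on the plus strand. The counts cover the exons of each gene, which add up to 1083 bases for Ppbp, 721 for Pf4, 881 for Gp9 and 1406 for Tubb1. No other gene of the table overlapped any of them.

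The 250 bases before the start site of each of the 4 genes in RefSeq (GRCm38.p6, plus strand, 5′ to 3′) are printed to show which words their promoters share. Whether promoters bear on the levels in these libraries was not tested. RefSeq starts Tubb1 further upstream than the count table does. Capitals mark every match, on either strand, to GGAAG (read CTTCC on the other strand; bound by ETS factors such as Fli1), GATAA or GATAG (bound by Gata1), TATAAA (the TATA box) and TGANTCA (the core of the site of Nfe2). The words were chosen with these sequences and genes known. No match overlapped another.
Ppbp (chr5:90768268-90768517): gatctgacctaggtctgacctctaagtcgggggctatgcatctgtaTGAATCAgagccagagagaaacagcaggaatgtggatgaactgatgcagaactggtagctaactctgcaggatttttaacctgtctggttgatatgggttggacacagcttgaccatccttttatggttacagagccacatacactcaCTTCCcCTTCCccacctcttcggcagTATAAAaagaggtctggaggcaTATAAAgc
Pf4 (chr5:90772185-90772434): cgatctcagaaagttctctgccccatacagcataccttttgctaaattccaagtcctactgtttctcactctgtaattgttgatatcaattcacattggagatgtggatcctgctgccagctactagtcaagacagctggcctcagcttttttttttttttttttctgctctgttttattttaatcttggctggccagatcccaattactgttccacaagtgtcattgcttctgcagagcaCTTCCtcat
Gp9 (chr6:87777820-87778069): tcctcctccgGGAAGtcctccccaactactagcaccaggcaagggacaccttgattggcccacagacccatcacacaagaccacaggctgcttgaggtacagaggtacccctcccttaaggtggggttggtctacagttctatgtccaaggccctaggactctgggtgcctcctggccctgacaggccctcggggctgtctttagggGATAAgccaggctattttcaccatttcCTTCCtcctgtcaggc
Tubb1 (chr2:174450345-174450594): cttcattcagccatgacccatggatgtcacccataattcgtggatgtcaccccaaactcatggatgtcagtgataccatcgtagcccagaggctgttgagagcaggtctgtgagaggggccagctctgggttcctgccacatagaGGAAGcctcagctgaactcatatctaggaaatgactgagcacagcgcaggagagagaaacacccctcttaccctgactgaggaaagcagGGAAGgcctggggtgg

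All 4 windows held GGAAG, as did 64.1% of 32544 RefSeq windows of these 250 bases. It occurred at 16 bases before the start in both Gp9 and Tubb1, at 9 bases in Pf4, and as 2 neighbouring matches at 56 and 50 bases in Ppbp. Gp9 had a GATAA at 43 bases before the start (37.4% of windows hold a GATAA or GATAG), and Pf4 had one after the start, outside the printed stretch. Ppbp held TATAAA at 30 and at 8 bases before the start (12.3% of windows) and TGANTCA at 204 bases (6.73%). No word other than GGAAG was shared by all 4, and a match is a string of letters, with no measurement of binding. The GC content was 47.2% for Ppbp, 41.2% for Pf4, 57.6% for Gp9 and 54.0% for Tubb1, against a median of 52.4%.

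The granule chemokines were the more abundant members. Per kilobase of exon, Pf4 averaged 18.5 CPM per kb over 12 libraries and Ppbp 7.37, against 3.27 for Tubb1 and 2.30 for Gp9. On that scale 67.9%, 46.6%, 32.3% and 27.2% of the 9519 genes tested had a lower level. The order Pf4, Ppbp, Tubb1, Gp9 held for the means in all 4 groups. In wild-type left lungs it ran 27.1 ± 6.97, 13.1 ± 5.53, 5.44 ± 0.92 and 4.30 ± 0.65 CPM per kb, and in knockout right lungs 13.2 ± 0.36, 2.98 ± 1.22, 1.79 ± 0.19 and 1.28 ± 0.62 (mean ± SD, n = 3). Within each of the 4 groups the libraries of Tubb1 and Gp9 overlapped on this scale, while those of Pf4 and Ppbp, and of Ppbp and Tubb1, did not.

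Ppbp was lower in every knockout library than in any wild-type library. Wild-type left libraries 1, 2 and 3 held 13.9, 20.3 and 8.32 CPM and wild-type right libraries 8.98, 13.2 and 6.60. Knockout left libraries held 5.77, 4.41 and 4.52 CPM and knockout right libraries 4.69, 2.88 and 2.12. Library 2 was the highest of wild type on each side and library 3 the lowest. The counts behind these levels ran from 22 to 215. The knockout mean was 34.6% of the wild-type mean on the left and 33.6% on the right.

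Pf4 was lower in every knockout library as well, by less. Wild-type left libraries held 19.5, 24.6 and 14.5 CPM and wild-type right libraries 14.2, 14.9 and 13.2. Knockout left libraries held 9.98, 8.53 and 11.7 CPM and knockout right libraries 9.28, 9.79 and 9.55. The spread was widest in wild-type left lungs (SD 5.03) and narrowest in knockout right lungs (SD 0.259). The knockout mean was 51.7% of the wild-type mean on the left and 67.5% on the right.

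Gp9 was the least abundant member, with 7 to 47 counts per library, so its values are the least precise. Wild-type left libraries held 3.36, 4.44 and 3.55 CPM and wild-type right libraries 1.34, 2.61 and 1.72. Knockout left libraries held 2.05, 0.671 and 1.16 CPM and knockout right libraries 1.76, 0.768 and 0.868. Library 1 was the highest of the knockout on each side and overlapped the wild-type right range. The knockout mean was 34.2% of the wild-type mean on the left and 59.8% on the right.

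Tubb1 followed the order of Ppbp and Pf4, with 1 library of overlap. Wild-type left libraries held 8.55, 8.22 and 6.17 CPM and wild-type right libraries 5.73, 4.11 and 4.88. Knockout left libraries held 3.62, 2.20 and 4.14 CPM and knockout right libraries 2.73, 2.21 and 2.60. Knockout left library 3 reached the level of wild-type right library 2. The knockout mean was 43.4% of the wild-type mean on the left and 51.3% on the right.

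**Figure D1:**
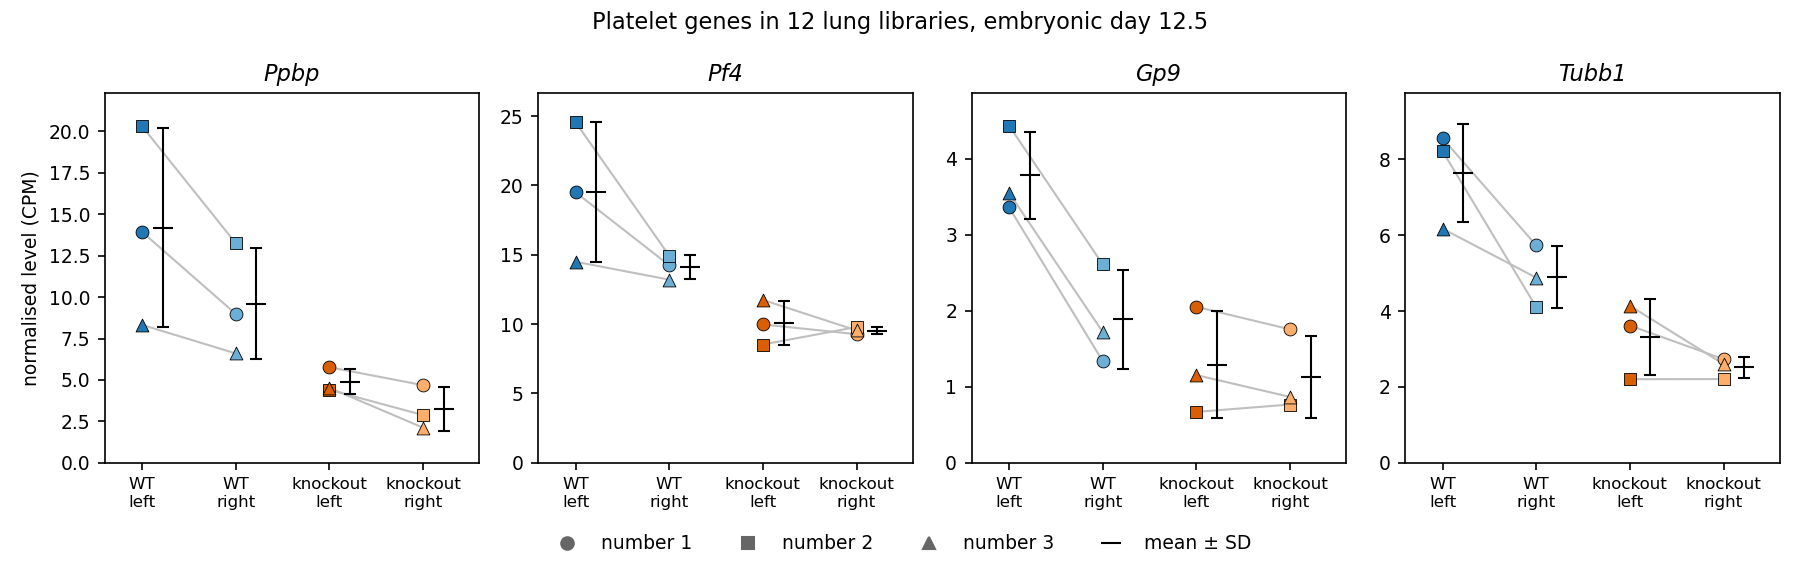
Normalised level (CPM, vertical axis from 0) of Ppbp, Pf4, Gp9 and Tubb1 in the 4 groups of lungs, with 1 point per library, a symbol for the library number, grey lines joining left and right libraries of one number, and a bar for mean ± SD (n = 3). Wild-type left lungs hold the highest mean of each gene (14.2, 19.5, 3.78 and 7.65 CPM) and knockout right lungs the lowest (3.23, 9.54, 1.13 and 2.52).

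The first comparison is of knockout with wild type, the question of the study. Averaged over left and right, the log2 difference of knockout from wild type was -1.55 for Ppbp (SE 0.25), -1.14 for Gp9 (SE 0.28), -1.08 for Tubb1 (SE 0.17) and -0.76 for Pf4 (SE 0.12), which corresponds to levels 2.93, 2.21, 2.11 and 1.69 times lower. These SEs treat the left and right libraries of one number as independent, although they deviated together, so they may be too small. All 6 knockout libraries lay below all 6 wild-type libraries for Ppbp and Pf4, which 2.65% of the genes tested also showed. Nothing is read from this or the other counts of members below, since the genes were chosen with these values known. In whole lungs, fewer platelets or megakaryocytes and less RNA per cell cannot be told apart.

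Each side gave the same direction. On the left the log2 differences were -1.53 (SE 0.34) for Ppbp, -0.95 (SE 0.17) for Pf4, -1.54 (SE 0.38) for Gp9 and -1.20 (SE 0.23) for Tubb1. The 3 knockout libraries lay below the 3 wild-type libraries for all 4 genes on that side, as for 8.26% of the genes tested. On the right the differences were -1.57 (SE 0.36), -0.57 (SE 0.18), -0.74 (SE 0.42) and -0.96 (SE 0.25) in the same order. There the groups did not overlap for Ppbp, Pf4 and Tubb1 (9.71% of genes). The difference of the genotype effect between sides was 0.04 (SE 0.48) for Ppbp, -0.39 (SE 0.25) for Pf4, -0.80 (SE 0.57) for Gp9 and -0.24 (SE 0.34) for Tubb1.

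The second comparison is of left with right lung. In wild type the left library exceeded the right library of its number in all 3 pairs for each of the 4 genes, which 14.1% of the genes tested also did. The ratio of left to right ran from 1.26 to 1.55 for Ppbp, 1.10 to 1.64 for Pf4, 1.70 to 2.51 for Gp9 and 1.26 to 2.00 for Tubb1. For Gp9 and Tubb1 the 3 left libraries lay above the 3 right ones altogether, as in 4.32% of genes. The log2 differences were 0.56 (SE 0.31) for Ppbp, 0.47 (SE 0.17) for Pf4, 0.99 (SE 0.36) for Gp9 and 0.64 (SE 0.22) for Tubb1. With the left-right pair as a block they were 0.55, 0.46, 1.00 and 0.64, with SEs of 0.12, 0.11, 0.24 and 0.17. Wild-type library 2 weighed most on Ppbp and Pf4. Without left library 2 the differences were 0.21 and 0.26, and without right library 2 Ppbp stood at 0.86.

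In the knockout the difference between sides was smaller as a value for 3 of the 4 genes. Ppbp was higher on the left in all 3 pairs, by 1.23 to 2.13 times, as 15.4% of genes tested were. Pair 2 ran the other way for Pf4 and Gp9, with ratios of 0.871 and 0.874, and was even for Tubb1 at 0.998. For none of the 4 did the 3 left libraries lie above the 3 right ones altogether, as in 3.97% of genes. The log2 differences of left from right were 0.60 (SE 0.38) for Ppbp, 0.08 (SE 0.18) for Pf4, 0.19 (SE 0.44) for Gp9 and 0.40 (SE 0.26) for Tubb1. The directions of Gp9 and Pf4 rested on single libraries. Gp9 stood at -0.30 without knockout left library 1, the library with the liver genes, and at -0.02 without knockout right library 2. Pf4 stood at -0.04 without knockout left library 3. Without knockout left library 1 the difference from wild type on the left was -2.03 for Gp9 and -1.66, -0.94 and -1.26 for Ppbp, Pf4 and Tubb1.

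The levels of the 4 genes were correlated over the libraries, and less closely once group means were removed. Over the 12 libraries the Pearson correlation of their log2 CPM ran from 0.82 for Pf4 and Gp9 to 0.93 for Pf4 and Tubb1, values that contain the differences between groups. On deviations from the group means it ran from 0.23 for Ppbp and Tubb1 to 0.63 for Ppbp and Gp9. Libraries share depth and scaling in these correlations, which are descriptions over 12 points. Within a library, Ppbp had 0.50 to 0.888 counts for each count of Pf4 in the 6 wild-type libraries and 0.222 to 0.578 in the 6 knockout libraries. These ranges overlapped, with wild-type left library 3 at 0.574 and wild-type right library 3 at 0.50.

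The wider set of megakaryocyte and platelet genes was taken from 5 lists of 95 genes by role, of which 52 were in the table and 51 were tested. These lists were chosen with earlier results of these data known, so their counts of calls are descriptions. Among the 47 besides the 4 members, 10 were called lower and 1 higher over both sides at an adjusted p under 0.05 in edgeR, against 5.7% of all genes called in either direction, 3.62% lower and 2.08% higher. The median log2 difference of the 47 was -0.12, with 31 below 0, against a median of 0.00 over all genes tested. The count over the 51 includes members picked with these values known, so it is no result about them. It was 15, and 9 without wild-type right library 2 or knockout left library 3. It also depended on the pairing. Among the 47, with left and right summed 2 were lower and 1 higher (1.04% of genes lower), and with the pair as a random effect in limma-voom 4 were lower and 1 higher (2.48% lower). On the left alone 1 of the 47 was called, higher (1.18% of all genes in either direction, 0.872% lower), and on the right alone 1, lower (1.51% and 1.18%). Between sides none of the 47 was called without pairs in wild type (0.0105% of all genes) or the knockout (0%), and none in the difference between genotypes of the side effect (0%).

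Granule genes other than the chemokines split. Of 11 tested, 2 fell and none rose. F5, coagulation factor V, which platelets carry in their granules, fell by 1.07 (log2, here and below; SE 0.24, adjusted p = 0.0158 in edgeR, and 0.111 with sides summed). F5 passed in limma-voom with pairs (adjusted p = 0.0431). In edgeR F5 did not pass without knockout pair 2 (0.0599) or 3 (0.0917), or wild-type pair 1 (0.0693) or 2 (0.0869). Its mean CPM was 3.83 (left) and 2.27 (right) for wild type against 1.55 and 1.26 for the knockout. Tgfb1, the growth factor TGF-beta-1, which many cells make, fell by 0.27 (SE 0.06, adjusted p = 0.0132, and 0.0479 summed), but did not pass in limma-voom with pairs (adjusted p = 0.0627) or without knockout pair 3 (0.0698) or wild-type pair 2 (0.0951). The granule genes with the highest levels, Thbs1 (thrombospondin 1), Cd63 and Serpine2, stood at -0.03, -0.04 and 0.01 and did not pass. Vwf, von Willebrand factor of platelets and endothelium, stood at 0.44 (SE 0.15, adjusted p = 0.106).

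Of 10 other receptor genes tested, 4 fell and none rose. P2ry1, a platelet receptor for ADP, fell by 0.66 (SE 0.10, adjusted p = 0.00121, and 0.0406 summed), with no left wild-type library under 9.35 CPM, no right one under 9.94, and at most 7.22 and 7.33 in the knockout. It was also called lower on the right alone (-0.73, SE 0.14, adjusted p = 0.0154). That call was lost with the compared groups alone (0.0541), with the number as a block (0.118), and without wild-type right library 2 (0.0715) or 3 (0.0707) or knockout right library 1 (0.0631) or 2 (0.0577). The second ADP receptor, P2ry12, which microglia and other macrophages also carry, fell by 0.70 (SE 0.17, adjusted p = 0.03, and 0.133 summed). It did not pass in limma-voom with pairs (adjusted p = 0.0836) or without wild-type left library 1 (0.0791), among others. Gp6, the platelet collagen receptor, fell by 1.33 (SE 0.37, adjusted p = 0.0487, and 0.109 summed) at group means of 0.355 to 1.23 CPM. Its call was lost in DESeq2 (adjusted p = 0.088) and in limma-voom with pairs (0.199). Most fits with a single library left out also lost it, such as without wild-type right library 2 (0.139). Pear1, a receptor of platelets and endothelium, fell by 0.25 (SE 0.06, adjusted p = 0.0245, 0.154 summed and 0.0505 in limma-voom with pairs). Clec1b, the platelet receptor for podoplanin, stood at -0.21, Cd9 at 0.21 and Tbxa2r, the thromboxane receptor, at -0.04.

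Cytoskeletal genes besides Tubb1 and transcription factors gave 1 call each. Was, the actin regulator of blood cells, fell by 0.74 (SE 0.19, adjusted p = 0.0332, and 0.187 summed) among 6 cytoskeletal genes. Its call was lost in limma-voom with pairs (adjusted p = 0.108) and without wild-type left library 2 (0.0869), among others. Flna (filamin A), Vasp and Tuba4a, which lung cells in general express, stood at -0.09, -0.12 and -0.19. Of 7 transcription factors tested 6 were below 0, and Lmo2, of blood and endothelium, fell by 0.22 (SE 0.05, adjusted p = 0.0271, and 0.156 summed). Lmo2 did not pass in limma-voom with pairs (adjusted p = 0.0727) or without wild-type left library 1 (0.0722), among others. Gata1 and Gfi1b, which act in megakaryocytes and red cells, stood at -0.50 (SE 0.33) and -0.63 (SE 0.38) at group means of 0.843 to 2.65 CPM, and did not pass (adjusted p = 0.435 and 0.383). Etv6 stood at -0.11 and Lyl1 at 0.00.

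Among 13 signalling genes 2 fell and 1 rose. Tbxas1, thromboxane synthase, which macrophages also make, fell by 0.93 (SE 0.18, adjusted p = 0.00673, and 0.0521 summed), from 5.03 ± 1.12 to 2.81 ± 0.60 CPM on the left and from 4.87 ± 0.83 to 2.38 ± 0.61 on the right. Mob3b, a MOB family kinase regulator, fell by 0.41 (SE 0.07, adjusted p = 0.00434, and 0.0757 summed). Slc2a3, a glucose transporter of platelets and of many other cells, rose by 0.46 (SE 0.08, adjusted p = 0.00291, and 0.0321 summed) and was called on the left alone as well (0.51, SE 0.11, adjusted p = 0.0389). The left call was lost with the number as a block (0.0826) and without any 1 of the 6 left libraries (0.0677 to 0.148). Rgs18, a regulator of G proteins in megakaryocytes, stood at -0.88 (SE 0.28, adjusted p = 0.0896). Gng11 (0.14), Cavin2 (0.36) and Inpp5b (0.01) did not pass.

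**Figure D2:**
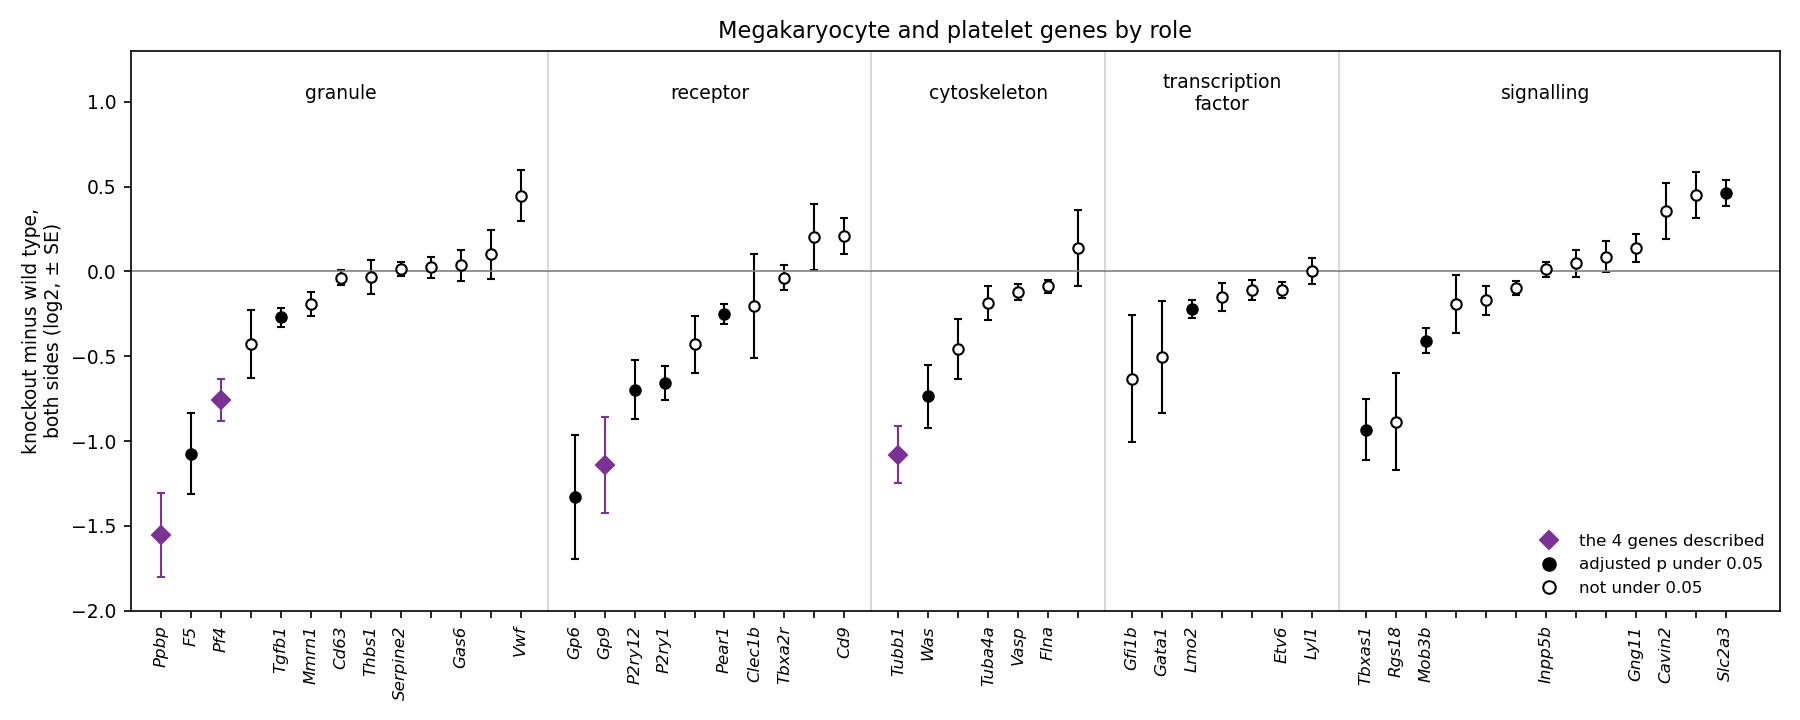
Log2 difference of knockout from wild type over both sides (vertical axis, ± SE from edgeR's quasi-likelihood fit) for the tested genes of the 5 lists but 1 that is not reported here, ordered by value within each role, with the names of those described in the text. Purple diamonds are the 4 genes described, filled circles the 11 other genes under an adjusted p of 0.05 (10 below 0 and 1 above) and open circles the rest, among which abundant genes such as Thbs1 and Flna lie near 0.

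Markers of other cells that the lung and its blood hold were measured beside these genes. Of 16 red cell genes, none was called between genotypes by edgeR or with sides summed (9 below 0, median log2 difference -0.06). Their summed level was 3268 to 3822 CPM in wild-type left, 2501 to 2751 in wild-type right, 3232 to 4274 in knockout left and 2791 to 3639 in knockout right libraries. Hbb-y, the embryonic beta globin, made up 76.4% of it and stood at 0.14 (adjusted p = 0.269), with Hbb-bs at 0.36 (adjusted p = 0.393). The knockout libraries of number 2, which were lowest in Gp9 and Tubb1, were the highest of the knockout in summed red cell level. None of the 16 red cell genes was at 0 in all libraries.

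Macrophage genes were lower with the same labels. Of 17 tested, 8 fell and none rose, and 16 were below 0 with a median of -0.48. With sides summed 3 were called (Laptm5, Mrc1 and Coro1a), and with pairs in limma-voom 7. Laptm5 fell by 0.53 (adjusted p = 0.000105), Coro1a by 0.61 (adjusted p = 0.0013), C1qb by 0.58 (adjusted p = 0.00171) and Mrc1 by 0.43 (adjusted p = 0.00176), while Lyve1, which endothelium also makes, stood at 0.22 (adjusted p = 0.344). The summed level of 18 macrophage genes was 377 to 418 CPM in wild-type left, 356 to 384 in wild-type right, 302 to 328 in knockout left and 288 to 306 in knockout right libraries, so genotypes did not overlap. The part of macrophages in the values of Pf4 and of list genes shared with them was not tested.

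Of 12 endothelial genes 1 rose (Sox18, 0.21, adjusted p = 0.0257, but 0.164 with sides summed and 0.07 in limma-voom with pairs), with Aplnr and Eng, the most abundant, at -0.16 and 0.28. Their sum was 1600 to 1723 CPM in wild-type left, 1611 to 1723 in wild-type right, 1519 to 2024 in knockout left and 1527 to 1901 in knockout right libraries. Of 9 genes of granulocytes and progenitors 6 were below 0, with a median of -0.22. The 1 called was higher (Csf3r, the G-CSF receptor, 0.70, adjusted p = 0.00459, but 0.075 summed), with Cd34 at -0.19 and Kit at -0.31. The liver genes Afp and Alb, high in knockout left library 1, stood at 0.45 and 2.84 (adjusted p = 0.676 and 0.162). In the lung lists Elf3 rose by 0.54 (adjusted p = 0.0329, but 0.203 summed and 0.0711 in limma-voom) and Col3a1 by 0.19 (adjusted p = 0.0237, but 0.179 summed), with Col1a2 at 0.22 (adjusted p = 0.0561).

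**Figure D3:**
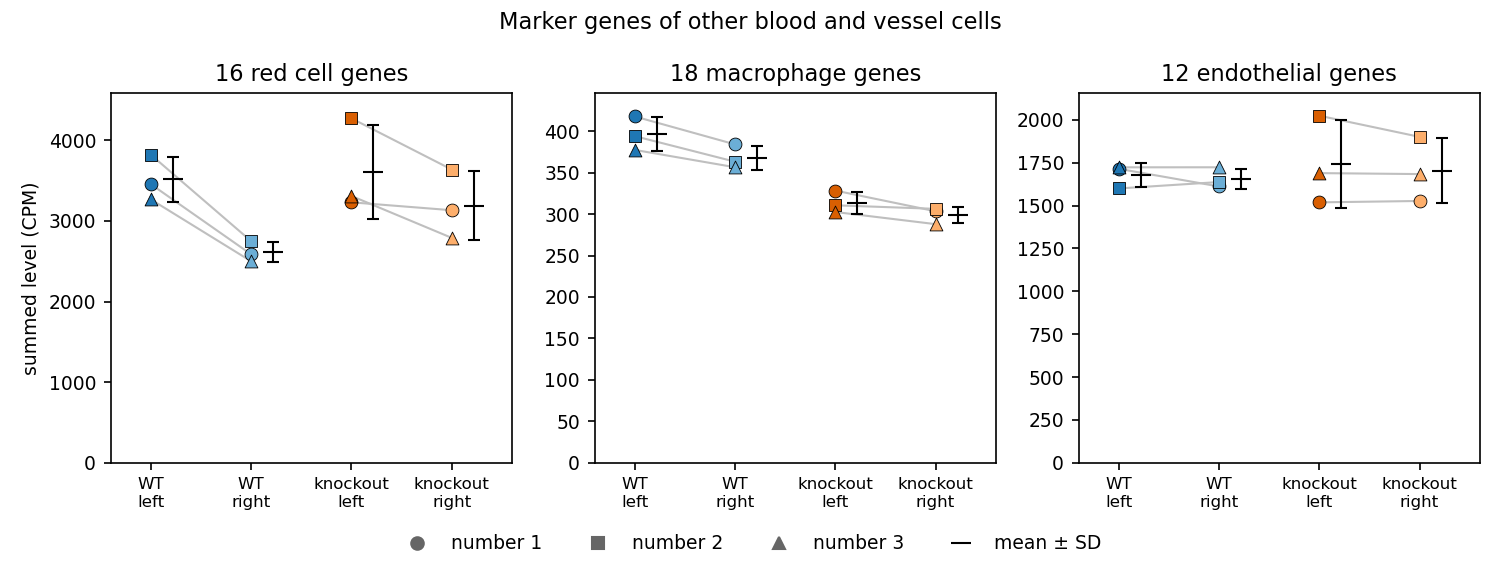
Summed level (CPM, vertical axes from 0) of 16 red cell, 18 macrophage and 12 endothelial genes in the 4 groups, with 1 point per library, symbols for the library number, grey lines joining left and right of one number and bars for mean ± SD (n = 3). Red cell sums are lower in wild-type right lungs (2501 to 2751) than in wild-type left (3268 to 3822), and macrophage sums lie at or under 328 in the knockout and at or over 356 in wild type.

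Red cell genes differed between sides in wild type in the same direction as the 4 platelet genes. Of 16 red cell genes 15 were higher on the left. With the left-right pair as a block 5 of them passed, among them Hbb-y (log2 difference 0.47, SE 0.05, adjusted p = 9.44e-07) and Hbb-bh1 (0.62, SE 0.07, adjusted p = 4.83e-06). In the same fit, which called 0.327% of genes higher on the left, so were 2 other granule genes, Gas6 (0.32, adjusted p = 0.00591) and Mmrn1 (0.25, adjusted p = 0.0132). Both are also made by vessel cells. In the knockout 14 of 16 red cell genes were higher on the left (median 0.22, against 0.35 in wild type), and the block called 1, Hbb-bs (0.27, adjusted p = 0.0292).

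Counts of each platelet gene were therefore also set against the 16 red cell genes of the same library, a scaling added after the data were seen. Per 1000 red cell counts, Pf4 stood at 5.50 ± 1.00 in wild-type left, 5.40 ± 0.113 in wild-type right, 2.88 ± 0.797 in knockout left and 3.02 ± 0.368 in knockout right lungs (SD, n = 3). Ppbp stood at 3.96 ± 1.38, 3.64 ± 1.10, 1.39 ± 0.378 and 1.02 ± 0.416 in the same order. For Tubb1 the values were 2.17 ± 0.293, 1.89 ± 0.366, 0.962 ± 0.392 and 0.804 ± 0.173, and for Gp9 1.07 ± 0.0949, 0.718 ± 0.218, 0.380 ± 0.241 and 0.361 ± 0.180. On this scale the wild-type sides overlapped for Pf4 and Ppbp, as they did in CPM, and for Tubb1, and did not for Gp9, at 0.973 to 1.16 on the left and 0.517 to 0.950 on the right. The 6 knockout libraries lay below the 6 wild-type ones for Ppbp, Pf4 and Tubb1, and Gp9 overlapped through knockout library 1 (0.636 and 0.561). The share of all genes that separate on this scale was not measured, so nothing is read from these overlaps.

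The log2 difference of left from right in wild type was 0.10 for Ppbp, 0.01 for Pf4, 0.62 for Gp9 and 0.21 for Tubb1 on that scale. The difference of knockout from wild type over both sides was -1.68, -0.90, -1.39 and -1.25 in the same order, larger in size than in CPM. Against the 18 macrophage genes it was smaller, at -1.20, -0.43, -0.92 and -0.78, and the 4 genes but Ppbp then overlapped between genotypes. The share of all genes that separate on the macrophage scale was not measured either. Pf4, separate in CPM, had 27.5 to 38.8 counts per 1000 macrophage counts in knockout and 37.0 to 62.3 in wild-type libraries.

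**Figure D4:**
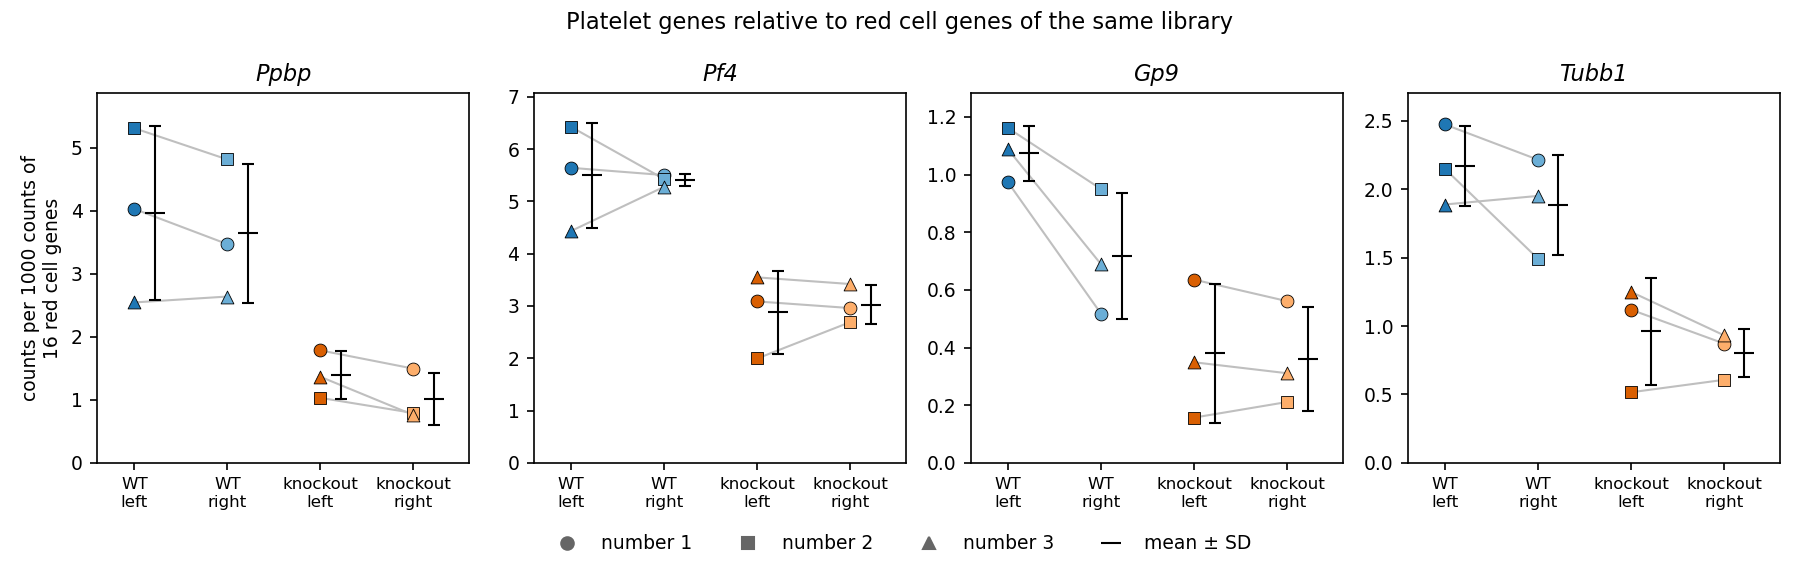
Counts of Ppbp, Pf4, Gp9 and Tubb1 per 1000 counts of 16 red cell genes in the same library (vertical axes from 0) in the 4 groups, with 1 point per library, symbols for the library number, grey lines joining left and right of one number and bars for mean ± SD (n = 3). The wild-type sides overlap for Ppbp, Pf4 and Tubb1, as with Pf4 at 5.50 and 5.40, while knockout means of the 4 genes stay below wild type.

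Other genes were ranked by how closely their log2 CPM followed the mean of the 4 standardised members over the 12 libraries. The highest Pearson correlations were 0.95 for F5, I830077J02Rik and Hpgd (which degrades prostaglandins), 0.93 for Coro1a and Fblim1 (a filamin-binding protein), 0.92 for Gsn (gelsolin, an actin-severing protein), Ugt1a7c and Laptm5. All 8 were lower in the knockout by 0.30 to 1.33 on the log2 scale, and each but Ugt1a7c (adjusted p = 0.0715) passed the test. The ranking reads the difference between genotypes along with any likeness. On deviations from the group means, which leave that difference out, the 8 highest were other genes, with 0.95 for Zcchc12 and 4930590J08Rik, 0.94 for Rpa2, Zc3h15 and Lrrc7, 0.93 for Gm43681 and BC085271 and 0.92 for Bnc1. None of those 8 passed between genotypes.

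None of the tested neighbours that are not themselves members passed between genotypes. Within 100000 bases of Ppbp and Pf4 the chemokine genes Cxcl5 and Cxcl3 had 20 and 8 counts over all 12 libraries and were not tested. Cxcl15, the lung chemokine further along the same cluster, averaged 25.3 CPM and stood at -0.19 (SE 0.09, adjusted p = 0.249). Around Gp9 6 of 14 genes were tested and around Tubb1 4 of 6. Cnbp, the most abundant neighbour of Gp9, stood at 0.01 (adjusted p = 0.958).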

How the data were processed

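Lung RNA was purified on columns and sequenced commercially, per the labels' protocols. The authors deposited raw counts of reads per gene. The submitters' processing notes name FastQC, HISAT2, featureCounts and the build GRCm38; versions and any use of strand were not given in the sources used. The table as used here ends within a row on chromosome 8, so 1 incomplete row was left out, and the other chromosomes were not analysed here. The 10290103 to 10753386 counts per library are thus part of each library's depth, and a gene with few counts, such as Gp9 (7 to 47), is measured with less precision.

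Symbols were matched by Ensembl ID for 30915 of 31078 genes (99.5%). Genes were filtered with filterByExpr (at least 10 counts, 15 in total), which left 9519, and scaled with TMM factors of 0.992 to 1.01. All 12 libraries entered 1 fit of 4 groups in edgeR 4.0.16 (glmQLFit, glmQLFTest, R 4.3.3; 8 residual degrees of freedom), with Benjamini-Hochberg adjustment over all genes tested and a threshold of 0.05. Levels are TMM-scaled CPM, differences are log2 fold changes, and an SE is the size of the difference over the square root of F. Correlations used log2 CPM with a prior count of 2. Alternatives used DESeq2 1.42.0 and limma 3.58.1 (voom), no filter, other size factors, the compared groups alone, replicate blocks and libraries left out. The procedure was also run on simulated counts, with an outcome not given here. Those counts were drawn independently for each library, so the run did not cover left-right pairs.

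The 4 members and the gene lists were chosen with earlier results of these data known, so no p-value is given for the members. None of them is named as called. Named besides them were list genes called in any comparison, the 3 most abundant per length of each role, the 2 most abundant and up to 4 called in each list of another cell type, and the 8 most alike by each of 2 correlations; Vwf, Clec1b, Gata1, Gfi1b, Rgs18, Gas6, Mmrn1, the neighbours, Intu, Gli1 and Wnt2 were added after their values were seen. Replicates differed by more than sampling noise (4.70 to 14.1 chi-square units per degree of freedom), so none was counted as a duplicate. Left and right libraries of one number within a genotype deviated together (r = 0.253 to 0.486 in 6 pairs, against -0.393 to -0.00284 for different numbers), and those of different genotypes but the same number did not (-0.121 to -0.0416), so numbers were taken to pair sides within a genotype, which the labels do not state. Promoter sequences are from RefSeq (GRCm38.p6), matched by symbol for 4 of 4 members. 1 list gene is counted but not reported by name here.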

Additional observations from a re-analysis of the deposited data

How the results depend on the processing

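The counts of called genes moved with the fit more than the values did. Called over both sides were 15 of 51 list genes (members included) and 543 of all genes, and 6 and 141 with left and right summed, 9 and 344 with pairs in limma-voom, and 1084 of all genes without the filter. Among the 47 besides the members 11 were called over both sides, 3 with sides summed and 5 in limma-voom. On the left alone and on the right alone it was 1 each. The members were chosen with these values known. The other counts of list genes here include them, so they are descriptions and no result about the members. Leaving out 1 library gave 9 to 14 list genes and 354 to 569 of all genes, and leaving out a pair 7 to 15 and 263 to 636, with 7 without knockout pair 3 or wild-type pair 2. On the left, 4 list genes and 112 of all genes became 7 and 193 with DESeq2, 11 and 510 without the filter, 1 and 49 with the compared groups alone, 0 and 24 with the number as a replicate block, and 0 to 4 and 45 to 85 with 1 library left out. On the right, 2 and 144 became 6 and 224, 13 and 595, and 0 list genes with the compared groups alone, 0 and 74 with the block, and 0 to 2 and 68 to 124 with 1 library left out. Left against right in wild type gave 0 list genes and 1 of all genes with edgeR (8 and 249 at an unadjusted p under 0.05), 11 of all genes with DESeq2, 1 and 46 without the filter, 8 of all genes with the compared groups alone, and 3 and 68 with the pairing as a block. Leaving out 1 library gave 0 to 0 and 1 to 2. In the knockout the same comparison gave 0 and 0 (2 and 358 unadjusted), with 4 of all genes in DESeq2, 31 without the filter, 35 with the block and 0 to 1 with 1 library left out. The interaction gave 0 and 0 (1 and 124 unadjusted), with 6 of all genes without the filter, 2 with the block and 0 to 0 with 1 library left out. Fits that leave samples out hold fewer libraries, and the cause of a changed count was not tested in any fit. Over 23 alternatives each, without the scalings to other cells, the log2 difference of knockout from wild type ranged from -1.80 to -1.23 for Ppbp, -0.87 to -0.64 for Pf4, -1.62 to -0.88 for Gp9 and -1.19 to -0.93 for Tubb1. The difference between sides in the knockout changed sign for Gp9 without knockout left library 1 (-0.30) or right library 2 (-0.02), and for Pf4 without knockout left library 3 (-0.04). Depth limits Gp9 most.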
